A study of Caenorhabditis elegans with 2 samples.

Results

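The 254 peaks described here are ZIP-5-eGFP binding regions in promoters that belong to protein-coding genes of 1 strand only. They were taken from the authors' optimal list of 746 reproducible peaks in the ce11 build, of which 730 lie on the nuclear chromosomes. A peak was kept where its summit fell in the promoter window, from 1000 bp upstream of a protein-coding gene's outermost start to 200 bp into the gene, and every gene so reached was on the same strand (Ensembl release 115, WBcel235). Of the 457 nuclear peaks with a summit in any such window, 254 (55.6%, exact 95% Clopper-Pearson interval 50.9 to 60.2) met this rule, 203 had genes on both strands, and 273 further nuclear peaks lay outside promoter windows. Of the 254, 239 had 1 gene in reach and 15 had 2, and 126 were assigned to genes on the plus strand against 128 on the minus strand.

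ChIP-seq, in which DNA crosslinked to a protein is recovered with an antibody and sequenced, was performed on whole late embryos of Caenorhabditis elegans, collected 4 hours after egg bleaching. The strain, OP544, is hermaphrodite with the genotype unc-119(tm4063) III; wgIs544, and wgIs544 is a transgene that expresses ZIP-5 with GFP and FLAG at its C terminus. The immunoprecipitation used an antibody against GFP, and 2 biological replicates of this line form the only group, so no condition was compared with another. An immunoprecipitation from animals without the tag was not analysed here, and a region that any immunoprecipitation recovers could not be told apart from one bound by ZIP-5.

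ZIP-5 belongs to the basic leucine zipper (bZIP) family, whose members pair through a coiled leucine zipper and grip DNA with the basic region next to it. Promoters in the worm are compact: genes lie close together, some are transcribed away from a shared stretch of DNA, and others share a single upstream promoter as an operon. A promoter with a gene on 1 side only gives each sequence and each summit a defined direction with respect to the gene. Many worm genes are trans-spliced, which removes the first part of the transcript, so an annotated start need not be the place where transcription begins.

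The sequence that stood out most at these summits was an 8-letter word, CTAGGCCA. Stretches of 121 bp around summits that carry it are shown on the strand of the gene, from 5′ to 3′ in the RefSeq WBcel235 (ce11) genome, with the word, or its reverse complement TGGCCTAG, in capitals. The first 4 are the strongest peaks with the word among those chosen for printing, whose surroundings hold no protein-coding exon. The last was chosen after its values were seen, because it holds the word on both strands.
sluh-7, chrV:10356077-10356197, minus strand: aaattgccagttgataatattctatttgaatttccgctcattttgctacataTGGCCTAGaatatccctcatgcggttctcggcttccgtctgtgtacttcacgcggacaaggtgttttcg
pfd-5/exos-9, chrIII:7198996-7199116, minus strand: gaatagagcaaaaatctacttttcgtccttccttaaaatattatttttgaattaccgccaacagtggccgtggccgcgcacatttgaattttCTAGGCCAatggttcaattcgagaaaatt
mog-3, chrIII:5308358-5308478, plus strand: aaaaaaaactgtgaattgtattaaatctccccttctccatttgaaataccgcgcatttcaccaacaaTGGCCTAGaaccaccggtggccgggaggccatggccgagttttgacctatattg
F26F4.8, chrIII:4905554-4905674, minus strand: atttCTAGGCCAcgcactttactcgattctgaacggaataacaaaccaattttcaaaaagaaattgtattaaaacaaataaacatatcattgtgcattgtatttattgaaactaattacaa
B0464.9, chrIII:9465596-9465716, plus strand: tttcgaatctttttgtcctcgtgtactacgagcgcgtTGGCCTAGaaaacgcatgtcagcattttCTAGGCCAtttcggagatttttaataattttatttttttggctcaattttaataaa

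A second set of overlapping words, ACTCCTCT and CTCTCGGA, lay at other summits and in a few cases beside the first. The first 2 lines show strong peaks with the second set and no full CTAGGCCA, though both hold parts of it, and the last 2 show peaks with both. The words ACTCCTCT, CTCTCGGA and CTAGGCCA are in capitals.
cyn-10, chrII:6913434-6913554, minus strand: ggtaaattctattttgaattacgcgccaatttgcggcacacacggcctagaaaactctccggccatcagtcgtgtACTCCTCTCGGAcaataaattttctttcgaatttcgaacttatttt
F26G1.1, chrII:4791416-4791536, plus strand: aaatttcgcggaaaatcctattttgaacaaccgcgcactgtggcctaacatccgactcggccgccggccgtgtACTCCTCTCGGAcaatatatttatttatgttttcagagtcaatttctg
ttb-1, chrV:156187-156307, plus strand: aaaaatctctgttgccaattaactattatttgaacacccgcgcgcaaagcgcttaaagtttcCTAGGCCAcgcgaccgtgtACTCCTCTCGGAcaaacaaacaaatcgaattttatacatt
apy-1, chrX:7569763-7569883, minus strand: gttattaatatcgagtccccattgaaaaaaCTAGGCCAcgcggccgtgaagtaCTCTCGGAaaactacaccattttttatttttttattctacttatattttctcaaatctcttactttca

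The strongest peaks carried neither word, but the 2 printed first held other words described below. The 100 bp on each side of the summit of the strongest, upstream of K12H4.5, and of the next, upstream of M01F1.9, are shown without capitals. Another 2 lines, 151 bp each, show a repeated element at strong peaks with the word CAGATCCC, or its reverse complement, in capitals. The last line shows the peak upstream of nhr-255, which lies within 100 bp of a tRNA gene, with the word GGGTTCGA (here as its reverse complement) in capitals.
K12H4.5, chrIII:8043856-8044056, plus strand: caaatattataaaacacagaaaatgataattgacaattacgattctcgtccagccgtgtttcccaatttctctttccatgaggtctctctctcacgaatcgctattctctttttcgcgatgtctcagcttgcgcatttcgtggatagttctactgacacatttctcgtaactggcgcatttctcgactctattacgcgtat
M01F1.9, chrIII:3499925-3500125, minus strand: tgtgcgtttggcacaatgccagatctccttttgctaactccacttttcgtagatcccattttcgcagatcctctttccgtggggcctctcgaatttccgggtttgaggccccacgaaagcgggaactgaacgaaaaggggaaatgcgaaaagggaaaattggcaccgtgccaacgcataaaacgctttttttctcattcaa
eel-1, chrIV:3050586-3050736, minus strand: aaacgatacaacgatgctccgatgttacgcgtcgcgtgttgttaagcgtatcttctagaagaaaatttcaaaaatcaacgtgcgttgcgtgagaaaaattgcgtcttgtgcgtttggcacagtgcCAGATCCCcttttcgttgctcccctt
Y32B12B.4, chrV:16553047-16553197, plus strand: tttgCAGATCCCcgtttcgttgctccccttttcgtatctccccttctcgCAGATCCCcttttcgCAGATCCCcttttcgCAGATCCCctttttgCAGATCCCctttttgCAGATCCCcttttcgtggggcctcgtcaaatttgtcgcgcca
nhr-255, chrX:15742063-15742183, plus strand: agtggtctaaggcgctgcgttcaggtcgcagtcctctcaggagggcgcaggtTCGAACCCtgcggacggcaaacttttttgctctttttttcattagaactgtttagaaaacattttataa

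The signal value is the peak caller's own score for each peak, with no stated scale, and it is used here only within a list. Across the 254 peaks it ran from 95.2 to 2499, with a median of 167 and quartiles of 120.5 and 231. All 254 overlapped a peak by at least 1 bp in the relaxed list of each replicate, but the optimal list was derived from those lists. Log10 signal in the 2 replicate lists had a Pearson's r of 0.871 over the 254 peaks, and the Spearman's rho was 0.824, a description only, since the peaks were chosen for rank agreement between the same libraries. Signal was higher in the replicate 1 list for 125 of the 254, and the medians were 82.9 in replicate 1 and 86.03 in replicate 2. The lists carry no read counts, the sequencing depth is unknown, and the intervals given reflect counting error alone.

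**Figure D1:**
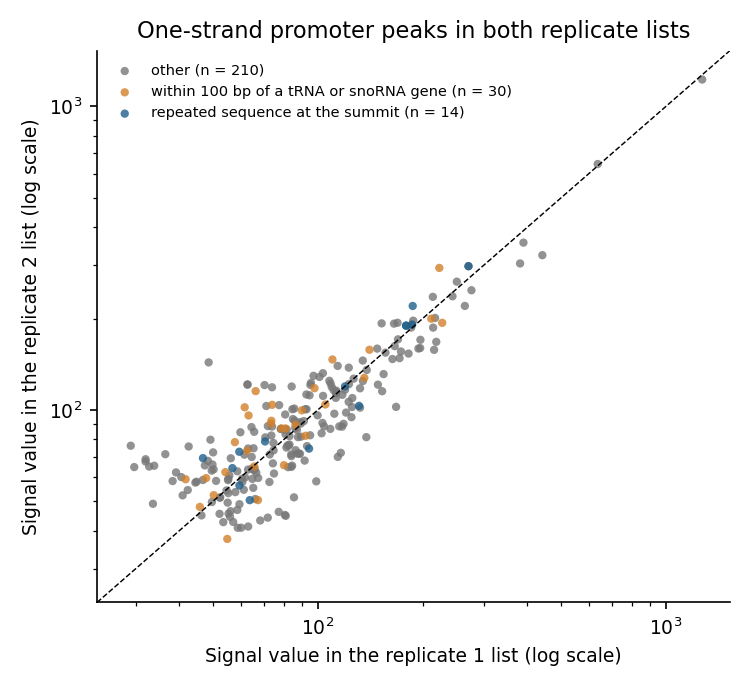
Signal value of each of the 254 one-strand promoter peaks in the replicate 1 list (x axis, log scale) and the replicate 2 list (y axis, log scale), with the line of equal values dashed. Blue points mark the 14 peaks over repeated sequence that are not near an RNA gene, orange points the 30 within 100 bp of a tRNA or snoRNA gene, and grey points the other 210; the strongest peak, at K12H4.5, reached 1272 and 1227.

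K12H4.5, an uncharacterized gene, had by far the highest value, 2499 with the summit 531 bp upstream of its start (position -531), and 1272 and 1227 in the replicate lists. That was the first rank in both replicate lists. M01F1.9, which encodes a protein with an arrestin domain, followed at 1271 with the summit at -968 bp, inside an intron of M01F1.8, and reached 637 in replicate 1 and 646.1 in replicate 2. Y50D4C.5 had 762.7, W03H9.2, whose product has an RNA recognition motif, 742.3, and C34C12.9 683.4. In each of these 3 the replicate 1 list gave the higher value, 441.7 against 323.5 for Y50D4C.5, 389.8 against 355.8 for W03H9.2 and 381.2 against 303.8 for C34C12.9.

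Below these, the 20 strongest peaks included genes with known roles in the nucleus, the mitochondrion and RNA turnover. The fzo-1 peak, at the gene for the worm mitofusin, a GTPase of mitochondrial fusion, had a signal of 525.9 at -317 bp. The lem-2 peak, at a gene for a protein of the inner nuclear membrane, had 512.2 at -210 bp. The mcm-10 peak, at a gene for a factor of DNA replication initiation, had 483 at -210 bp, within an intron of teg-1. The ippk-1 peak, at the gene for inositol-pentakisphosphate 2-kinase, had 477.9 at -485 bp, and the npp-6 peak, at a nucleoporin gene, had 461.8 at -398 bp. The peaks at app-1, which encodes an aminopeptidase, and bag-1, which encodes a cochaperone of Hsp70 proteins, had 420.3 and 402.7. Those at btf-1, the homologue of a factor that removes TATA-binding protein from DNA, and edc-4, which encodes an enhancer of mRNA decapping, had 386.1 and 385.2.

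The same 20 included 3 peaks within 100 bp of a snoRNA gene. These lay upstream of sre-23, a chemoreceptor gene (513.3, near ZK265.10), T02E1.2 (421.6, near T02E1.9) and F59C6.18 (409.6, near F59C6.15). The eel-1 gene, which encodes a HECT-type E3 ubiquitin ligase, had a pair of peaks (569.6 and 397) that shared a repeated element with the peaks at Y32B12B.4 (403.1) and npp-6. At the other end, the weakest were ZK622.1 (95.24), pkhm-2 (95.96) and srh-269 (96.11), and ZK622.1 and srh-269 lay within 100 bp of a tRNA gene.

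The largest differences in rank between the replicates were at weak peaks. The aipl-1 peak (104.5) ranked 3065 in replicate 1 and 413 in replicate 2, pkhm-2 ranked 2790 and 541, and F48A11.4 (104.3) ranked 2105 and 496. In the other direction ZK622.1 ranked 629 and 1618, C13B4.1 (102.9) 524 and 1224, and arp-1 (103.9) 560 and 1257. The highest optimal-list signal among these 6 was 104.5, so they lay well under the median of 167. A strong peak, at lrpr-1 (266.2), chosen after its values were seen, also differed, with a signal of 48.54 in replicate 1 and 143.4 in replicate 2, and ranks of 763 and 125.

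Summits lay upstream of the start in 251 of the 254 cases, at a median position of -267 bp (quartiles -463.5 and -157). The bulk sat between -500 and -101 bp: 94 summits (37.01%, 31.1 to 43.3) lay between -250 and -101 bp and 80 (31.5%, 25.8 to 37.6) between -500 and -251 bp. Another 54 (21.3%) lay farther upstream, 23 (9.06%) within 100 bp upstream, and 3 downstream of the start. Those 3 were lrpr-1 at 5 bp, T26C11.9 at 110 bp and mrt-2, a checkpoint gene homologous to RAD1, at 154 bp, each within an exon of the gene itself. Measured from the start codon, the median was -315 bp.

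The window was set by the rule, and its edges fall between near neighbours. Just inside lay dhs-8 at -999 bp (208.4) and mrps-28 at -984 bp (301.7) upstream, and mrt-2 and T26C11.9 downstream. Just outside lay C03F11.4 at -1006 bp (128.3) and ZC21.10 at -1007 bp (95.82) upstream, and egl-17 at 215 bp (191.6) and ssup-72 at 231 bp (176.8) downstream.

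Of the one-strand summits, 120 of 254 (47.2%, 41.0 to 53.6) were within 250 bp of the nearest start. For promoter peaks with genes on both strands, counted once for each strand, 227 of 406 distances (55.9%, 50.9 to 60.8) were within 250 bp. By the nearest start alone their count was 162 of 203 (79.8%, 73.6 to 85.1), but such a window holds at least 2 starts, so the nearest is closer by construction. The rule itself uses these distances, and the values are a description with no test.

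**Figure D2:**
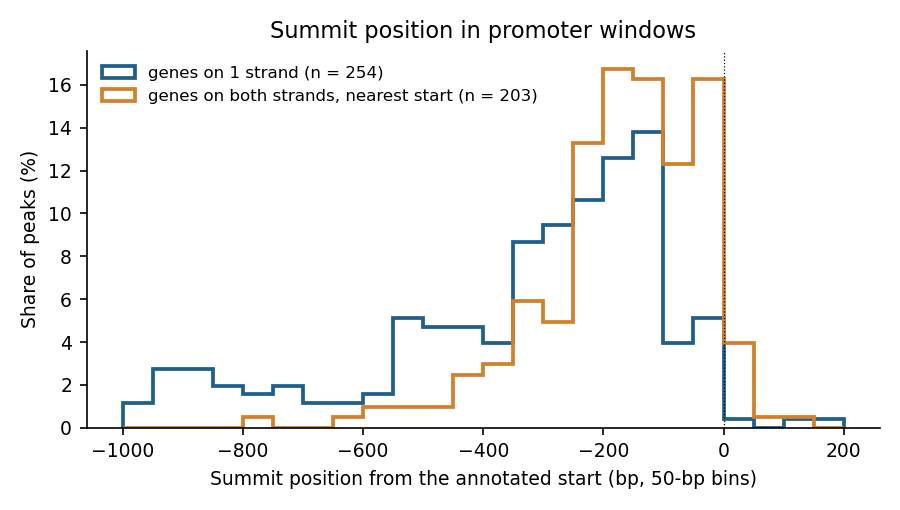
Share of promoter peaks (y axis, percent) by summit position from the annotated start (x axis, bp, in bins of 50 bp, upstream negative). The blue line is the 254 one-strand peaks and the orange line the 203 peaks with genes on both strands at their nearest start; the one-strand peaks have a long upstream tail and a median of -267 bp, the others a median of -152 bp.

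What lies on the far side of a one-strand summit fell into 3 arrangements. In 137 cases (53.9%, 47.6 to 60.2) the next protein-coding gene upstream was on the same strand, and it ended a median of 308 bp from the summit (15 to 11780). In 90 cases (35.4%, 29.6 to 41.7) it was on the opposite strand, a median of 3108 bp away, with none closer than 1013 bp, a gap that the rule enforces. In the other 27 (10.6%, 7.12 to 15.1) the summit was inside another protein-coding gene, in an intron in 20 and in an exon in 7.

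With genes on both strands, 0 of 203 summits lay inside another gene body, a count on which the positions of the starts used by the rule bear and which is a description with no test. One-strand examples in introns were mcm-10 in teg-1, npp-6 in spd-5 and C47E8.4 in hsp-90 (signal 227.3), and examples in exons were mrps-35 in sws-1 (268.6), pbs-3 in ulp-2 (121.4) and uri-1 in mdt-18 (204.7). No difference in signal between the classes was detected with all peaks. Signal was above the median of all promoter peaks in 126 of 254 (49.6%, 43.3 to 55.9) one-strand peaks and 102 of 203 (50.2%, 43.2 to 57.3) of the others (Fisher's exact test, two-sided, adjusted p = 0.925 over 5 comparisons of the classes), with medians of 166.7 and 169.5. In the stronger 50% of all nuclear peaks the same comparison gave a difference of -15.2 percentage points (Fisher's exact test, two-sided, adjusted p = 0.0374). That set was itself cut on signal, and the rule bears on 2 of the 5 comparisons adjusted together. Their small p-values ease the adjustment of the others, so no conclusion is drawn from this call. These tests treat peaks as units and describe this list, since all peaks come from the same 2 libraries.

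Slightly fewer one-strand peaks were among the strongest of both replicates. Of the one-strand peaks 203 of 254 (79.9%, 74.5 to 84.7) overlapped a peak among the 746 strongest of each replicate list, against 179 of 203 (88.2%, 82.9 to 92.3) of the others (Fisher's exact test, two-sided, adjusted p = 0.0273). The call was lost with windows of 500 or 2000 bp upstream (adjusted p = 0.324 and 0.0738) and in the stronger 50% of the peaks (adjusted p = 1, Fisher's exact test throughout).

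Small RNA genes lay near one-strand summits more often than near summits in both-strand promoters. Outside promoter windows the share was higher still, at 133 of 273 (48.7%). A summit within 100 bp of a tRNA or snoRNA gene, whose products carry amino acids to the ribosome or guide the modification of other RNAs, was found at 30 of 254 one-strand peaks (11.8%, 8.11 to 16.4). The count was 7 of 203 (3.45%, 1.40 to 6.975) with genes on both strands (Fisher's exact test, two-sided, adjusted p = 0.00157), and with a window of 500 bp upstream the call was lost (adjusted p = 0.0614). Of the 30, 19 were near a tRNA gene and 11 near a snoRNA gene. Genes of small nuclear RNAs (snRNA) were not part of this count and lay within 100 bp of 3 one-strand summits (1.18%). Their median signal was 166.3 and their median position -435.5 bp, against 168 and -244 bp for the 224 others, and 4 of the 30 lay within 250 bp of the start. The promoter classes also differ in distance to the start, on which the rule bears, and its part in this difference was not tested. Whether such peaks reflect the RNA gene or the protein-coding gene was not tested.

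The 8-letter words were compared between the 100 bp on each side of the summit and an equally wide flank whose middle lay 500 bp from the summit, farther from the gene. Where the next gene was on the same strand, it ended a median of 308 bp from the summit. Flanks can therefore lie in a neighbouring gene, which was not accounted for. Of 1731 words present in at least 10 windows, 46 (2.66%) were more frequent at summits and 0 (0%) less frequent (exact McNemar test, two-sided, adjusted p under 0.05). The count was 21 with windows reaching 200 bp to each side, 72 against the downstream flank and 28 in the stronger 50% of the peaks. Of 2019 6-letter words, 109 (5.4%) were more frequent and 57 (2.82%) less frequent. A word and its reverse complement were counted as 1, and words that overlap each other are not independent.

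CTAGGCCA was at 44 of 254 one-strand summits (17.3%, 12.9 to 22.6) and in 3 of the flanks (1.18%), with an adjusted p of 4.27e-07 over all 8-letter words by the exact McNemar test. In windows of the same size centred at -267 bp it was found at 158 of 19972 protein-coding genes (0.791%), searched on both strands. The strongest peaks with it were at sluh-7, a splicing factor gene (signal 357.8, 194.5 and 159.3 in the replicates), pfd-5 and exos-9, for a prefoldin and an exosome subunit (345.9, 152.5 and 192.8), and F10E9.11 and sas-4, the latter needed for centriole assembly (306.2, 163.8 and 147.1). Next were Y73B6BL.29, annotated as a tRNA pseudouridine synthase (278.6), mog-3, a splicing factor gene (274.3), mrps-35, for a mitochondrial ribosomal protein (268.6), ekl-6 (252.8) and F26F4.8 (233.5).

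The word was missing from the strongest peaks, but its peaks ran nearly down to the weakest. The 44 peaks ran from 96.2 to 357.8 with a median of 184, and 28 of them were above the median of promoter peaks. The 210 without it ran from 95.2 to 2499 with a median of 161, and 98 were above. Only 1 of the 44 lay near a tRNA or snoRNA gene, against 29 of the 210, and 0 against 14 lay over repeated sequence. Within 250 bp of the start were 25 of the 44 (56.8%) and 95 of the 210 (45.2%), with no test made of these splits.

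Occurrences crowded around the summit. Of the 48 within 100 bp, 19 (39.6%, 25.8 to 54.7) had their centre within 10 bp of it, 28 (58.3%, 43.2 to 72.4) within 20 bp and 44 (91.7%, 80.0 to 97.7) within 50 bp. Their median position was -221.5 bp from the start. With respect to the gene, 24 read in the sense and 24 in the antisense direction (50%, exact binomial test, two-sided, adjusted p = 1). Of 620 words with at least 10 occurrences, 1 (0.161%) was oriented past the threshold, AAAAATCG, with 4 sense and 26 antisense occurrences (exact binomial test, adjusted p = 0.0369).

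**Figure D3:**
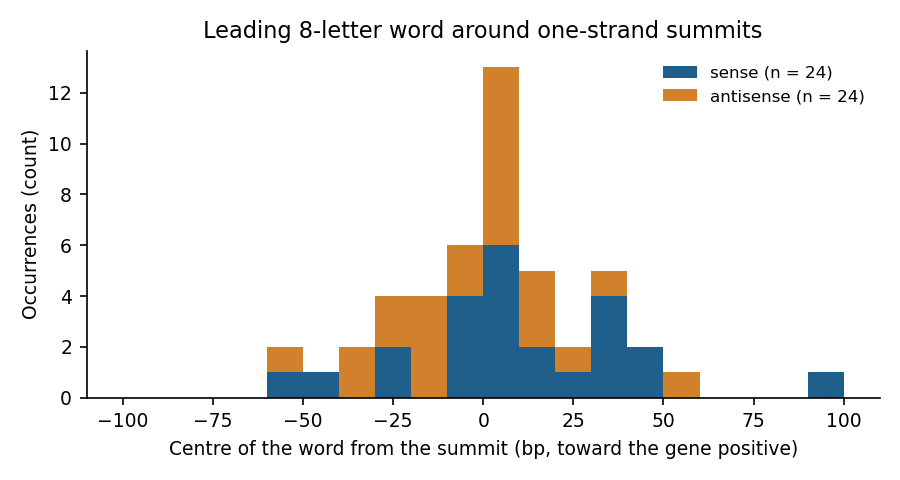
Number of occurrences (y axis) of the leading 8-letter word by the distance of its centre from the summit (x axis, bp, bins of 10 bp, positive toward the gene) at one-strand promoter peaks. Blue and orange bars, stacked, are the 24 sense and 24 antisense occurrences; 44 of the 48 lie within 50 bp of the summit.

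The bases next to the word were uneven as well. Of the 48 occurrences read in the direction CTAGGCCA, 35 (72.9%) had T in the second position before it, 26 (54.2%) T just before it and 29 (60.4%) C just after it. The 11-letter string these bases make, TTCTAGGCCAC, was at 13 one-strand summits, 1 flank, 9 summits with genes on both strands and 2 of the 273 outside promoters. It was in 50 of 19972 promoter windows (0.25%). Among the 44, 4 peaks held CTAGGCCA in pairs: the copies were 28 bp apart in opposite directions at mff-2, B0464.9 and T13F2.2, which shares its peak with pis-1, and 20 bp apart in the same direction at npp-13.

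Where genes lie on both strands, the word was at 35 of 203 summits (17.2%, 12.3 to 23.1), and the difference was 0.0815 percentage points (Fisher's exact test, two-sided, adjusted p = 1). Of 1640 8-letter words compared between the classes, 0 (0%) passed the threshold after adjustment by Fisher's exact test and 83 had an unadjusted p under 0.05. Outside promoters it was at 6 of 273 summits (2.20%, 0.811 to 4.72; Fisher's exact test, two-sided, adjusted p = 1.69e-06). In that comparison 18 of 1766 words (1.02%) were more frequent at one-strand peaks and 12 (0.68%) less frequent. The less frequent ones included CTGAGCTA, at 2 against 36 summits, and GGTTCGAC, at 0 against 15, and 133 of the 273 outside peaks lay near a tRNA or snoRNA gene.

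Most copies of the word in the genome were not under a peak. Of 5720 occurrences on the nuclear chromosomes, 92 (1.61%) were within 100 bp of an optimal summit and 314 (5.49%) within 100 bp of a summit of the relaxed list called on both replicates. Of the 810 in promoter windows of 1 strand, 49 (6.05%) and 94 (11.6%) were. What sets the copies under peaks apart was not tested.

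The second set of words joined 10 overlapping 8-letter words, and at least 1 of them was at 41 one-strand summits (16.1%) with a median signal of 177, 2 of them near an RNA gene. CTCTCGGA was at 24 summits and in 0 flanks (exact McNemar test, adjusted p = 6.88e-05), and ACTCCTCT at 21 and 0 (exact McNemar test, adjusted p = 0.000236). Of all promoter windows, 0.551% and 0.491% held them. In the both-strand promoters they were at 15 (7.39%) and 22 (10.8%) summits, against 9.45% and 8.27% here. The strongest members with CTCTCGGA were cyn-10, a peptidyl-prolyl isomerase gene (288.1), F26G1.1 (275) and F13A7.14, annotated with a bZIP domain (268.2), followed by mrt-2 (256.8). CTAGGCCA and CTCTCGGA stood together at 7 summits, among them C49A9.10 (215.8), thoc-5, for a subunit of the mRNA export complex THO (214.3), and ttb-1, for transcription factor IIB (183).

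Among the other words past the threshold, several shared GGCC or were rich in CG. CACGGCCA was at 18 summits and in 1 flank (adjusted p = 0.00943, exact McNemar test), CTCGGCCA at 23 against 3 (adjusted p = 0.0101, exact test), AAACGCGC at 20 against 2 (adjusted p = 0.00578, exact test) and GCGCTCTA at 14 against 0 (adjusted p = 0.0106, exact test). GGGTTCGA, part of the B box inside tRNA genes, was at 14 summits and 0 flanks (adjusted p = 0.0106, exact test), and 13 of the 14 were near a tRNA or snoRNA gene. Of all promoter windows 0.406%, 0.751%, 1.001%, 0.491% and 0.406% held these words in the order given. CTAGGCCA, CACGGCCA and CTCGGCCA end in the same letters and can stand at the same summit. Others were neither, such as AAAGGGGA, at 16 summits and in 2 flanks (adjusted p = 0.0106, exact test), and ACGAAAAG, at 18 and 2 (adjusted p = 0.0114, exact test), which 0.726% and 1.362% of all promoter windows held. The group of overlapping words with AAAGGGGA was at 25 summits, 8 of them over repeated sequence, and that with ACGAAAAG at 24, 7 of them over repeated sequence. The stretch printed for M01F1.9, the peak next to the strongest, holds both words.

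Few summits held a full bZIP palindrome. The C/EBP-type palindrome TTGCGCAA was at 5 of 254 summits (1.97%, 0.642 to 4.53) and 1 flank, the cyclic AMP response element TGACGTCA at 3 and 3, and TTACGTAA at 0 and 0 (exact upper bound 1.44%). In both-strand promoters TTGCGCAA was at 6 of 203 summits (2.96%, Fisher's exact test against one-strand summits, unadjusted p = 0.549). None of the 3 palindromes was present in the 10 windows needed for the test against flanks. Promoter windows in general held them at 0.421%, 1.28% and 0.165%. CTTGCGCA, which shares a run of 7 letters with it, was at 11 summits and 0 flanks (exact McNemar test, adjusted p = 0.0367), and the 6-letter GCGCAA at 41 summits and 9 flanks (exact McNemar test, adjusted p = 0.000168). Of all promoter windows 0.3104% and 5.137% held these. The stretch printed for K12H4.5, the strongest peak, holds both but no full palindrome. The lack of a match says only that these letters are not in the window.

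Summits were rich in G and C. The window of 100 bp on each side of the summit had a mean GC content of 40.9% ± 6.53 (SD, n = 254 peaks) against 35.65% ± 7.08 in the upstream flank. GC was higher at the summit in 173 peaks and lower in 78 (68.9% higher of those that differed, exact sign test, two-sided, p = 1.92e-09). The rise was narrow: in 51 bp at the summit the mean was 49.0% ± 0.745 (SEM), falling to 33.8% 100 bp upstream and 33.1% 100 bp downstream. With windows reaching 200 bp to each side the comparison missed the threshold (56.35% higher, exact sign test, p = 0.0506). The word comparison was not matched on GC content, and the part played by composition in the counts of CG-rich words was not tested. The GC comparison used the same flanks, which can lie in a neighbouring gene.

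**Figure D4:**
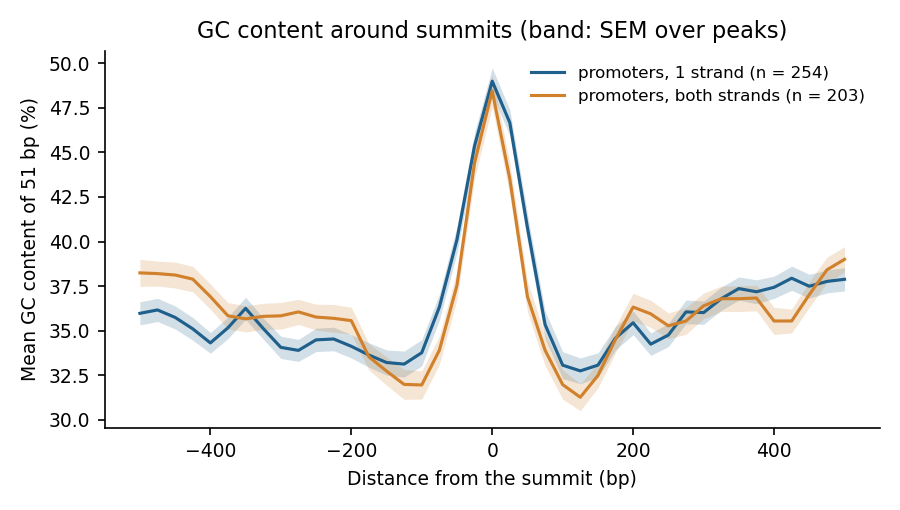
Mean GC content of 51 bp (y axis, percent, axis not starting at 0) by distance from the summit (x axis, bp, positive toward the gene for one-strand peaks and along the plus strand for the others). Blue is the 254 one-strand peaks and orange the 203 with genes on both strands, with bands of the SEM over peaks; both peak at the summit, at 49.0% and 48.5%.

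A further set of peaks, strong and weak, lay over repeated DNA. In 14 of the 254 (5.51%, 3.05 to 9.08) at least 50% of the 24-bp stretches within 100 bp of the summit occurred more than once in the nuclear genome, and none of the 14 was near a tRNA or snoRNA gene. Their signal ran from 112.1 to 569.6 with a median of 202, against a median of 166 for the other 240. By shared stretches of 30 bp, 31 peaks fell into 7 families. These groups were looked for after the values were seen and carry no test, and the treatment of reads from repeated sequence is unknown.

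The largest family had 11 peaks with signals from 163 to 569.6 and a median of 358. Its members were eel-1, Y62F5A.12 and rps-24, a ribosomal protein gene, with 2 peaks each, and npp-6, C09E7.7, ttll-4, C26B2.7 with elpc-4, and Y32B12B.4. At 10 of the 11 the summit held CAGATCCC, which was at 11 one-strand summits in all and in 0.1903% of promoter windows. In the stretch printed for Y32B12B.4 the word stood 6 times. The stretch printed for M01F1.9 lacks the word but resembles part of the one printed for eel-1. By shared stretches of 30 bp M01F1.9 was not in the family, and 11.24% of its 24-bp stretches were repeated. Of the 11 peaks 7 were over repeated sequence by the rule above, and 1251 copies of CAGATCCC lie in the nuclear genome.

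Smaller families had lower signals. One of 5, at rpa-2, T22C1.1, F13H8.2, mcm-3AP and him-6, ran from 105.5 to 127.9, and one of 4, at unc-85, set-25, vps-39 and mtcu-2, from 104 to 172. A family of 5, each within 100 bp of a tRNA gene, was at K02B12.7, rga-2, ZK622.1, Y22D7AL.6 and C04C11.25, with signals from 95.2 to 139.9. In all, 5 genes had 2 one-strand summits in their window, the others being egg-5 (147.3 and 113.4) and ftt-2 (175.5 and 139.1). In all 5 pairs both peaks matched the same peak in each replicate list, so the paired entries were not separate there. No member had 3 or more genes in its window.

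The 264 genes with a one-strand summit in their window are 1.32% of the 19973 protein-coding genes on the nuclear chromosomes. Most lists of genes that every cell uses held larger shares, and the lists of receptors, collagens, neuropeptide, immune and homeobox genes held smaller ones. Several intervals on both sides include 1.32%. The lists were chosen by gene name with earlier results of these peaks known, some windows are shared, and no list was tested. Of the 264 genes 181 (68.6%) have a locus name, against 10896 of 19973 (54.55%) overall. The share of all genes was not matched to this. In all 21 lists, 68 of 3957 genes (1.72%) had such a summit. For peaks in windows of genes on both strands, the share of all protein-coding genes was 2.01%. List shares there were higher than here for some lists and lower for others.

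The nuclear pore and transport list had the highest share, with wide and overlapping intervals between lists. In it 5 of 40 (12.5%, 4.19 to 26.8) had a summit: npp-6 (461.8), npp-8 (191.6), npp-13 (160.8) and npp-1 (125.4), all nucleoporins, and ima-3, an importin alpha (100.7). This list too was made by name and leaves out rae-1, annotated as an mRNA export factor, which had a summit (355.3). The cell cycle and DNA list held 8 of 103 (7.77%, 3.41 to 14.7), led by mcm-10 (483), sas-4 (306.2), pole-1, the catalytic subunit of DNA polymerase epsilon (190), and smc-5, of a complex for DNA repair (147.8). Transcription machinery held 6 of 78 (7.69%, 2.875 to 15.99), led by mdt-8 of Mediator (370.4), elpc-4 of Elongator (239.4), ttb-1 (183) and rpoa-12, an RNA polymerase subunit (168.1). The mdt-8 and elpc-4 summits, at -984 and -929 bp, lay over repeated sequence and nearer to another gene. Summits were also nearer to another gene for sas-4 (-713 bp), exos-9 (-983 bp), pas-1 (-866 bp) and tbg-1 (-856 bp), so that 1 peak counts in 2 lists for exos-9 and pfd-5, for pas-1 and rpoa-12, and for tbg-1 and rpac-19. Chromatin genes held 4 of 121 (3.31%, 0.908 to 8.25): the histone methyltransferases set-2 (205.3) and set-25 (148.9), swsn-3 of the SWI/SNF complex (190.6) and the acetyltransferase cbp-1 (102.9).

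**Figure D5:**
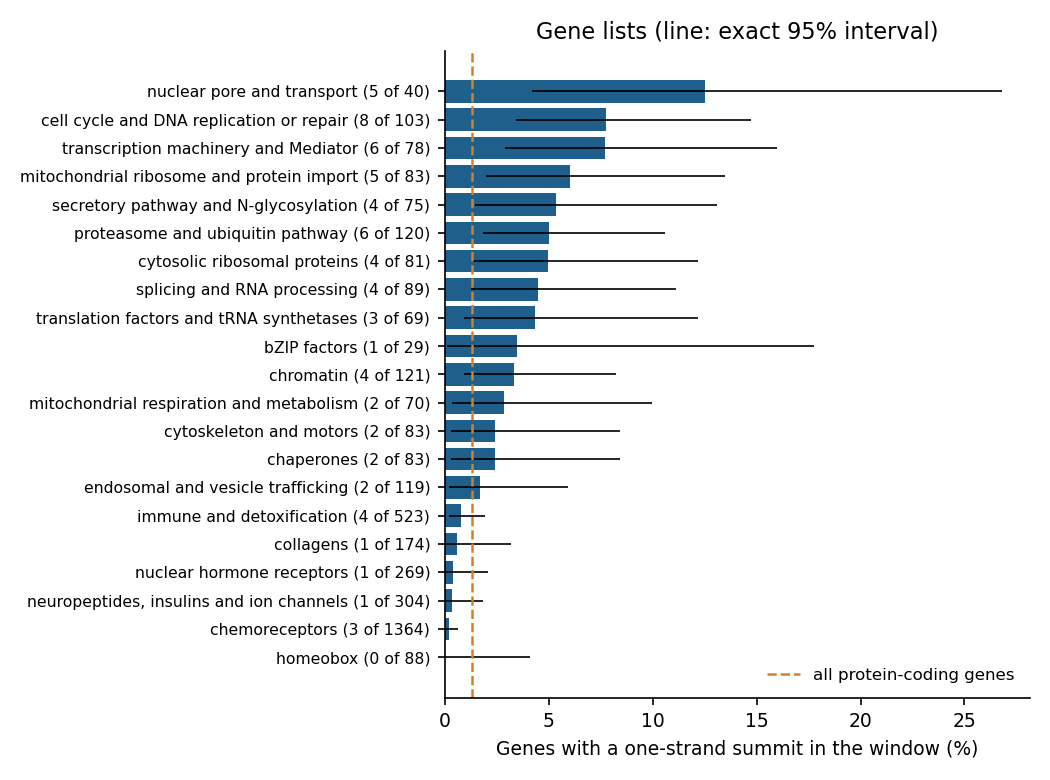
Share of each gene list with a one-strand summit in the promoter window (x axis, percent, counts beside the names), with exact 95% intervals as lines. The dashed line is the 1.32% of all protein-coding genes; nuclear pore and transport genes stand at 12.5%, and no homeobox gene had such a summit.

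Genes of RNA processing and protein synthesis were also present. The list of splicing and RNA processing genes held 4 of 89 (4.49%, 1.24 to 11.1). These were the exosome genes exos-8 (360.2) and exos-9 (345.9), and cpsf-1 (315.7) and cpf-2 (152.9), the latter 2 of the cleavage and polyadenylation machinery. The list was made by name and leaves out other splicing genes that also had a summit. Examples are sluh-7, mog-3, mog-4 and cwc-15, noticed after their values were seen. Cytosolic ribosomal proteins held 4 of 81 (4.94%, 1.36 to 12.2), at rps-24 (358.3), rps-28 (240.3), rpl-3 (190.9) and rpl-35 (159.8). In windows of genes on both strands 12 of 81 (14.8%) had a peak, where the share of all protein-coding genes was 2.01%. Translation factors and tRNA synthetases held 3 of 69 (4.35%, 0.906 to 12.2), at the initiation factor genes eif-3.B (260.5) and eif-3.C (110.5) and at yars-2 (121.2). The mitochondrial ribosome and import list held 5 of 83 (6.02%, 1.985 to 13.5), led by mrps-28 (301.7), mrps-35 (268.6), mrpl-15 (176.9) and mrpl-23 (174.7), of which mrps-28 and mrpl-23 lay near snoRNA genes.

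Protein turnover, transport and energy genes had shares from 5.33% down to 1.68%. The proteasome and ubiquitin list held 6 of 120 (5%, 1.86 to 10.6), led by ufd-3 (238.3) and ufd-2 (193), of ubiquitin chain handling, pas-1, a proteasome subunit (168.1), and usp-4, a ubiquitin hydrolase (162). The secretory list held 4 of 75 (5.33%, 1.47 to 13.1), at sec-61.G of the translocon (162), sec-12 (127), emc-1 of the ER membrane complex (123.8) and pdi-6 (111.1). Of its genes 11 of 75 (14.7%) had a peak in a window of genes on both strands, against 2.01% of all protein-coding genes. Endosomal genes held 2 of 119 (1.68%, 0.204 to 5.94), near the 1.32% of all genes, at vps-39 (121.4, over repeated sequence) and vps-37 (97.99). This holds for one-strand windows only, as 9 of 119 (7.56%) had a peak in a window of genes on both strands. Mitochondrial respiration held 2 of 70 (2.86%, 0.348 to 9.94), cox-6A (227.7) and cox-5B (97.03), both for subunits of cytochrome c oxidase. The cox-6A summit, at -804 bp, lay within 100 bp of the snRNA gene F54D8.7. Cytoskeleton genes held 2 of 83 (2.41%, 0.293 to 8.435), the tubulins tbg-1 (125.6) and tba-2 (120.3). Chaperones also held 2 of 83 (2.41%, 0.293 to 8.435), pfd-5 (345.9) and cyn-10 (288.1). The intervals of the respiration, cytoskeleton and chaperone lists include the 1.32% of all genes.

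Few genes of tissue-specific families had a one-strand summit, and several of those that did lay near small RNA genes. Immune and detoxification genes held 4 of 523 (0.765%, 0.209 to 1.95), clec-126 (194.3), clec-53 (179.7), gst-27 (166.4) and clec-78 (98.67), with clec-126 near a tRNA and gst-27 near a snoRNA gene. Chemoreceptors held 3 of 1364 (0.2199%, 0.0454 to 0.641), sre-23 (513.3), srz-62 (113.8) and srh-269 (96.11), with the first near a snoRNA and the last near a tRNA gene. The only nuclear hormone receptor of 269, nhr-255 (213.6), the only collagen of 174, col-185 (126.8), and the only gene of 304 in the neuropeptide and channel list, flp-23 (166.3), each had a summit near a tRNA gene. In that order the intervals of these lists were 0.00941 to 2.05%, 0.0146 to 3.16% and 0.00833 to 1.82%. Like the immune interval, they include the 1.32% of all genes. Among the lists in this paragraph, only the chemoreceptor interval lay wholly below it. No homeobox gene of 88 had one (exact upper bound 4.105%), a bound that includes the share of all genes. Of 29 bZIP factors in the list 1 had a summit, cebp-2, a C/EBP homologue (207.6, at -108 bp).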

How the data were processed

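ChIP-seq of ZIP-5-eGFP was measured in 2 replicates of 1 group. The authors derived a relaxed peak list from each replicate and a control, another from both replicates, and from these the optimal list by IDR, which scores rank agreement (per the deposited file listings). The deposited lists give a signal value per peak and a −log10 q-value, used only to order peaks of equal signal. Aligner, peak caller, settings and IDR threshold: not given in the sources used here. Depth is unknown. Summits, windows, words and lists were computed with Python 3.11.15, numpy 2.4.6, scipy 1.17.1 and pandas 2.3.3 on ce11 coordinates, counted from 1. Word scans were tried on random sequence of a single base composition with a planted word, which checks only that a scan can find it. That does not address false calls at summits that differ from their flanks in GC content. Benjamini-Hochberg adjustment ran over all words of a scan, or over the 5 class comparisons. Gene products come from RefSeq annotation by gene ID.

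The members and lists were chosen with earlier results of these data known. Named genes were the 20 strongest and 3 weakest members, the 4 strongest of each list, the 8 strongest with CTAGGCCA, those nearest the window's edges, the 3 largest rank differences in each direction, and genes with 2 or more summits; others named were chosen after their values were seen. Alternatives covered the window, the threshold, each replicate, RNA genes, word distance, flank and overlap. Leaving out repeated windows was added after seeing the data. The ce10 lists were not used here.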

Additional observations from a re-analysis of the deposited data

How the results depend on the processing

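Of 89 recomputed values, 78 kept their side of the threshold without reversing a called difference, or stayed within 1.5 times for counts. A difference called in neither setting could change sign and still be among them. For CTAGGCCA between the promoter classes it was 0.0815 percentage points, and -3.25 with a window of 500 bp. Using only the stronger 50% of the peaks left 139 one-strand peaks and 28 words. The difference in signal from both-strand promoters was then -15.2 percentage points (Fisher's exact test, adjusted p = 0.0374), in a set itself cut on signal. For the strongest of both lists the difference was -0.719 (adjusted p = 1, exact test). That difference was -4.66 and -6.62 with windows of 500 and 2000 bp. The difference at tRNA and snoRNA genes was 5.34 at 500 bp, and 0 without those peaks by construction. The number of words was 21 within 200 bp of the summit and 72 against the downstream flank, and the share of peaks with higher GC 56.35% within 200 bp. With 1 replicate left out, the optimal list was replaced by the 746 strongest peaks of the other replicate's relaxed list, so the list size was fixed. One-strand peaks then numbered 251 to 258, words 38 to 43, and CTAGGCCA stood at 17.5% to 18.6%. The overlap of both lists has no value without a replicate. Without repeated windows, added after the data were seen, 240 peaks and 38 words were left, and no result named here changed its call. Distance to the start and position inside another gene were recomputed too, but the rule bears on both and no test is read from them. All their recomputed values are among the 78, so that count overstates how stable the other results were. Both entered the adjustment over the 5 class comparisons. No paired analysis was possible because there is only 1 group.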

Other observations

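The leading word was unevenly spread over the chromosomes, and its spread among peaks did not follow its spread in the genome. CTAGGCCA occurred 147 times per Mb on chromosome I and 11.9 times per Mb on X, with 77.9 on III, 52.6 on IV, 47.4 on II and 27.5 on V. Among one-strand peaks it was at 15 of 43 summits on III (34.9%) and 10 of 44 on V (22.7%), but 5 of 44 on I (11.4%) and 5 of 55 on II (9.09%). On IV it was at 6 of 39 and on X at 3 of 29. These splits were looked at after the values were seen, were not tested, and rest on few peaks per chromosome. One-strand peaks themselves ranged from 3.6 per Mb on II to 1.64 on X.

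Outside the bZIP list, 2 genes annotated with a bZIP domain had a one-strand summit, F13A7.14 (268.2 at -170 bp) and Y17G7B.20 (250.5 at -438 bp, in an exon of ash-2). They were named after their values were seen.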
